A study of Mus musculus with 12 samples.

Results

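The Toll-like receptors examined here are the 10 genes Tlr1, Tlr2, Tlr3, Tlr4, Tlr5, Tlr6, Tlr7, Tlr8, Tlr9 and Tlr13, taken by gene symbol from the 57010 genes counted. All 10 were detected in each of the 12 libraries and all 10 were among the 15425 genes that passed the filter on low counts. The other mouse receptor genes, Tlr11 and Tlr12, had 2 to 32 and 0 to 7 counts per library and are given by their counts only.

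Toll-like receptors are membrane proteins of innate immune cells that bind conserved microbial molecules. Tlr1, Tlr2, Tlr4, Tlr5 and Tlr6 work mainly at the cell surface, where Tlr2 pairs with Tlr1 or Tlr6 to bind lipoproteins, Tlr4 binds lipopolysaccharide and Tlr5 binds flagellin. Tlr3, Tlr7, Tlr8, Tlr9 and Tlr13 sit in endosomes and bind nucleic acids, and most receptors signal through the adaptor Myd88 to NF-kappaB and interferon regulatory factors. In the osteoclast lineage, which arises from monocytes and macrophages, their ligands are known to act on precursors and on the pace of osteoclast formation.

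The study asked how loss of the histone demethylase LSD1 changes osteoclast precursors in mice with periodontitis. LSD1cKO mice carry floxed LSD1 alleles and LysM-Cre, a Cre recombinase driven by the lysozyme 2 promoter of myeloid cells, and the controls were LSD1WT mice, which the paper's methods also call Lsd1LysM-WT. Bone marrow of female mice, 2 months old by the sample labels and 3 months old by the paper's sequencing methods, was grown into preosteoclasts with M-CSF and RANKL over 2 days before sequencing of polyA RNA. The marrow was that of the mandible or the femur of mice whose molars had carried a ligature for 7 days, or that of the femur of unligated mice, with 2 libraries of each genotype in each of these 3 cultures. The labels name 9 mice, and 1 LSD1WT and 2 LSD1cKO mice among them gave libraries from both bones. The labels conflict for mandible LSD1WT replicate 3, a mandible sample by title and a femur sample by library name, and it was taken as mandible.

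Kdm1a, which encodes LSD1, was at 61.2 to 71.3 CPM (counts scaled to library size and composition) in the 6 LSD1WT libraries and at 15.6 to 24.3 CPM in the 6 LSD1cKO libraries, and it fell by 1.82 on the log2 scale over the 3 cultures (adjusted p = 3.56e-05, quasi-likelihood test of edgeR, Benjamini-Hochberg adjusted). Total counts ran from 21375805 to 32526751 per library, so that the floor of 3 counts stood at 0.0927 to 0.154 CPM, and this floor covers counting error only. The lowest receptor level, 0.550 CPM for Tlr5, lay above it. The femur LSD1WT replicate 2 libraries, ligated and unligated, stood apart from the other 10. Their 10 osteoclast markers summed to 168 and 238 CPM, against 11544 to 40907 CPM elsewhere, with Calcr, Dcstamp, Ocstamp and Oscar at or below 1.41 CPM. Their 8 macrophage markers summed to 45271 and 21930.4 CPM, against 2802 to 10418 CPM elsewhere. The label preosteoclast was thus borne out by osteoclast markers in 10 of the 12 libraries. Receptor results for genotype and for site are given below with and without the other 2. Family shares pooled over cultures and likenesses between genes are given with them only. For the ligature difference in LSD1WT only the ligated replicate 2 is left out. Lymphoid, mast cell and erythroid markers summed to at most 9.60 CPM in any library, neutrophil markers to 89.5 to 306 CPM and plasmacytoid dendritic cell markers to 37.5 to 225 CPM.

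The promoters were searched for motifs named for interferon, myeloid and NF-kappaB factors. RefSeq promoter windows on GRCm38.p6, of 300 bases from 250 before to 50 after each start, matched 8 of the 10 members. Tlr4 and Tlr7 had no window and were not searched. The windows of Tlr8 and Tlr13 held no motif, and 1 matched stretch per gene is shown for the 6 genes that held a motif. Capitals mark the motif match, and each stretch reads 5′ to 3′ on the gene's own strand, with both strands searched.
Tlr6, chr5:64959260-64959289, minus strand: ctattctTTTCTCTTTCACTTTCtgtttga
Tlr1, chr5:64933563-64933592, minus strand: attaaatgttgGAGGAAGTaggagcttgaa
Tlr9, chr9:106222597-106222626, plus strand: gtgaaagtgtcACTTCCTCaattctctgag
Tlr2, chr3:83841761-83841790, minus strand: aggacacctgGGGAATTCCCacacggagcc
Tlr3, chr8:45410572-45410601, minus strand: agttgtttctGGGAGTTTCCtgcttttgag
Tlr5, chr1:182954758-182954787, plus strand: agcagcgggcGGTGTTTCCCtctcctcccc

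Among these 8 genes, Tlr6 alone held the interferon response core (GAAA, 2 bases of any kind, GAAA), in 2 overlapping matches, and 3.44% of the 32851 windows in the table held it. The PU.1 motif GAGGAAGT was in the windows of Tlr1 and Tlr9 and in 3.20% of all windows. The kappaB motif (GGGA, 4 bases of any kind, CC) was in the windows of Tlr2, with 2 matches, Tlr3, with 3, and Tlr5, and in 20.7% of all windows. The match of Tlr6 ended 100 bases before the start, and that of Tlr3 shown here 201 bases before it. A match describes letters in this window and shows no binding.

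**Figure D1:**
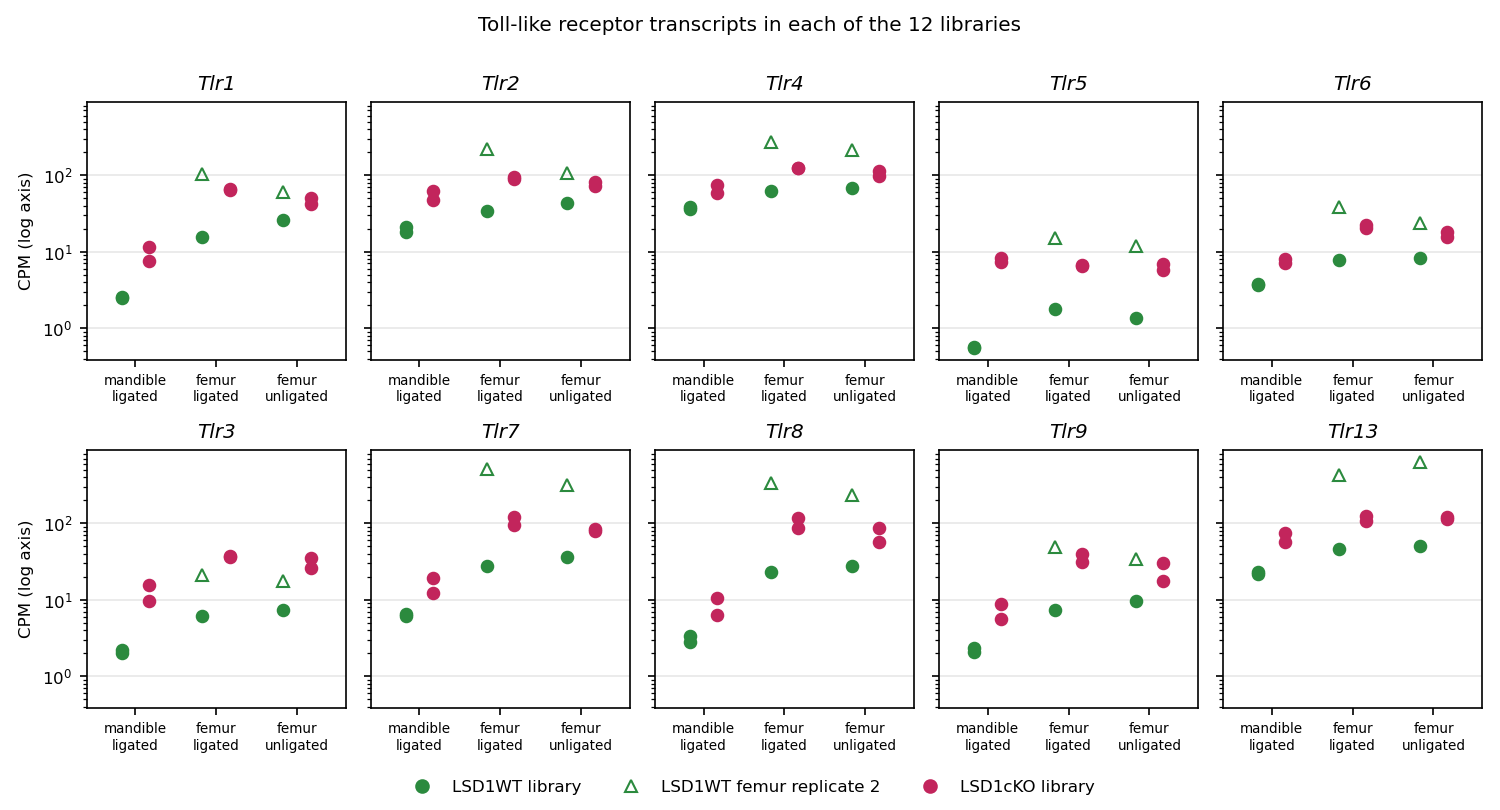
CPM (log axis) of each of the 10 receptors in each of the 12 libraries, by culture. Every point is 1 library, with LSD1WT in green, LSD1cKO in magenta and the 2 femur LSD1WT libraries numbered replicate 2 as open triangles; in the mandible all LSD1cKO points lie above all LSD1WT points for each receptor, and in the femur the triangles lie above the LSD1cKO points for each receptor but Tlr3.

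The receptors differed widely in level. Per kilobase of exon, which allows genes to be compared (exon lengths from GENCODE vM21), Tlr13, Tlr2 and Tlr4 had the largest shares of the family sum in LSD1WT, with medians of 20.7%, 20.3% and 18.6% over 6 libraries. Tlr7, at 12.3%, and Tlr8, at 11.2%, followed them, and the ranges of these 5 receptors overlapped. Tlr1, Tlr6, Tlr9 and Tlr3 had medians of 5.29%, 3.44%, 2.87% and 1.73%. The lowest was Tlr5, at 0.404% to 0.657%, with no library reaching the 0.818% to 2.11% of Tlr3, and Tlr3 in turn stayed below the 2.40% to 4.04% of Tlr9. In LSD1cKO the same 5 receptors led and Tlr5 was again last, with 0.731% to 2.83%, but Tlr3 now lay at 3.47% to 4.53%, within the 3.01% to 6.18% of Tlr9. These ranks pool the cultures, and in the mandible Tlr8 was lower in rank, with 3.44% to 3.83% against 4.09% to 4.32% for Tlr6 in LSD1WT and 3.31% to 4.10% against 4.26% to 4.75% for Tlr1 in LSD1cKO.

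Summed over the 10 receptors, the mandible LSD1WT libraries had 96.3 and 103 CPM and the mandible LSD1cKO libraries 218 and 295 CPM. In the ligated femur the sum was 230.4 and 1977 CPM in LSD1WT and 739 and 667 CPM in LSD1cKO. Unligated femur libraries summed to 277 and 1655 CPM in LSD1WT and to 587 and 566 CPM in LSD1cKO. The family was thus lowest in the mandible LSD1WT cultures and highest in the 2 femur LSD1WT libraries with few osteoclast transcripts. In these, each receptor was 3.42 to 18.4 times its level in replicate 1 of the ligated femur and 2.33 to 12.4 times that of the unligated femur. Bulk RNA does not tell more cells of a type from more RNA per cell.

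**Figure D2:**
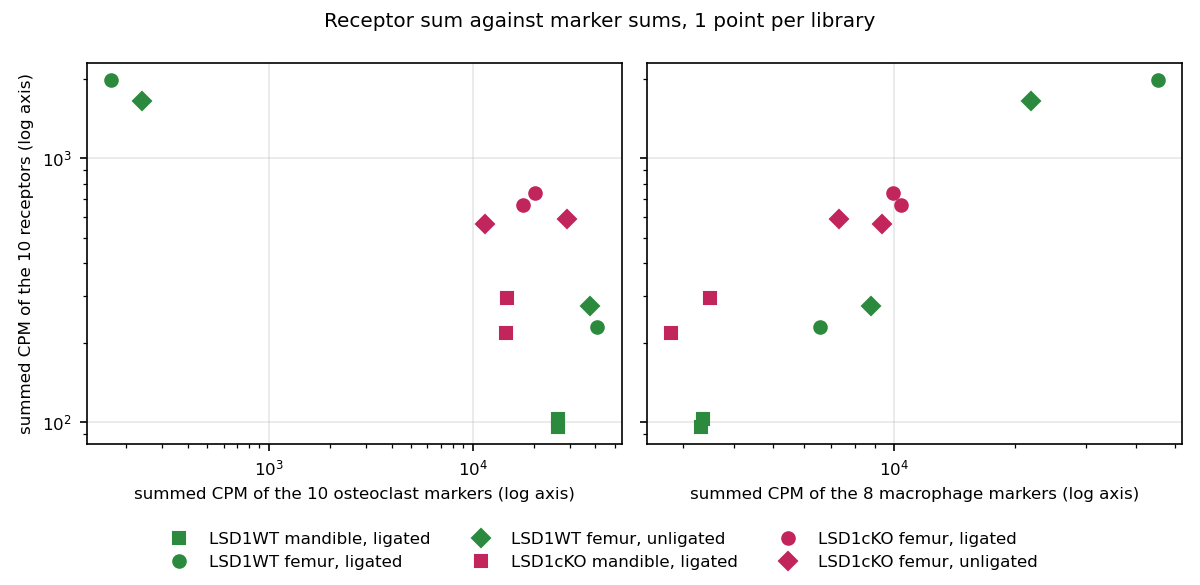
Summed CPM of the 10 receptors (y axis, log) against summed CPM of 10 osteoclast markers (left, log) and of 8 macrophage markers (right, log), with 1 point per library. The femur LSD1WT libraries with 168 and 238 CPM of osteoclast markers have the highest receptor sums, 1977 and 1655 CPM. The mandible LSD1cKO libraries lie above the mandible LSD1WT libraries, with macrophage sums of 2802 and 3499 CPM against 3311 and 3360 CPM. Single macrophage markers differed in direction there, and their part was not tested.

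Whether LSD1 loss changed the receptors over all 3 cultures was tested in a model with terms for culture and genotype and 6 libraries per genotype. Tlr3 (ENSMUSG00000031639), the sensor of double-stranded RNA, rose in LSD1cKO, and it was the only 1 of the 10 receptors to pass an adjusted p of 0.05, where 3.53% of all genes tested passed (544 of 15425). In the mandible Tlr3 had 2.04 and 2.24 CPM in the LSD1WT pair and 9.62 and 15.8 CPM in the LSD1cKO pair. In the ligated femur it had 6.21 and 21.2 CPM in the LSD1WT pair and 37.5 and 35.8 CPM in the LSD1cKO pair. In the unligated femur it had 7.25 and 17.7 CPM in the LSD1WT pair and 34.7 and 26.4 CPM in the LSD1cKO pair. Both LSD1cKO libraries were above both LSD1WT libraries in each culture, although the femur LSD1WT values reached higher than the mandible LSD1cKO values. Tlr3 was the only receptor with this order in all 3 cultures, which 5.17% of all genes showed in the same direction. Its log2 fold change was 1.74 (standard error 0.36), with an adjusted p of 0.0269 (quasi-likelihood test of edgeR, Benjamini-Hochberg adjusted). Across 22 alternatives the log2 fold change stayed between 1.61 and 2.45 while the adjusted p from the fitted models (edgeR, DESeq2 or limma) ran from 1.65e-05 to 0.0891. It passed 0.05 in 16 of these and missed it in 6. Leaving out mandible LSD1WT replicate 1 or 3 gave 0.0645 or 0.0679 (edgeR), leaving out ligated femur LSD1cKO replicate 1 or 2 gave 0.0511 or 0.0507, summing the 2 mandible LSD1WT libraries gave 0.0645, and taking mandible LSD1WT replicate 3 as femur gave 0.0891.

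The other 9 receptors did not pass the test over the 3 cultures, and the 5 that kept their sign had adjusted p from 0.545 to 0.789 (edgeR). Tlr1 (log2 fold change 0.68, standard error 0.47), Tlr2 (0.35, 0.47), Tlr5 (0.89, 0.86), Tlr6 (0.31, 0.39) and Tlr9 (0.70, 0.49) had values above 0 under all 22 alternatives, and each passed under 1 of them, the fit without the 2 femur LSD1WT replicate 2 libraries. For Tlr4, Tlr7, Tlr8 and Tlr13 the sign itself turned under 15, 3, 7 and 4 of the 22 alternatives, so no direction is given for them. The median log2 fold change was 0.33 over the 10 receptors and -0.06 over all genes tested. DESeq2, which called 8.09% of all genes, and limma voom each called 1 receptor, which was Tlr3. Without the 2 femur LSD1WT libraries low in osteoclast transcripts, all 10 receptors passed and all 10 were higher in LSD1cKO, with log2 fold changes from 0.87 to 2.75 and a median of 1.57. In that fit 24.2% of all genes passed and the median of all genes was 0.02. The count of receptors called over the 3 cultures is therefore 1 with these 2 libraries and 10 without them. Both are LSD1WT and had the highest receptor sums of the series, 1977 and 1655 CPM. Leaving them out moves the genotype difference up by itself and leaves 1 LSD1WT library in each femur culture.

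**Figure D3:**
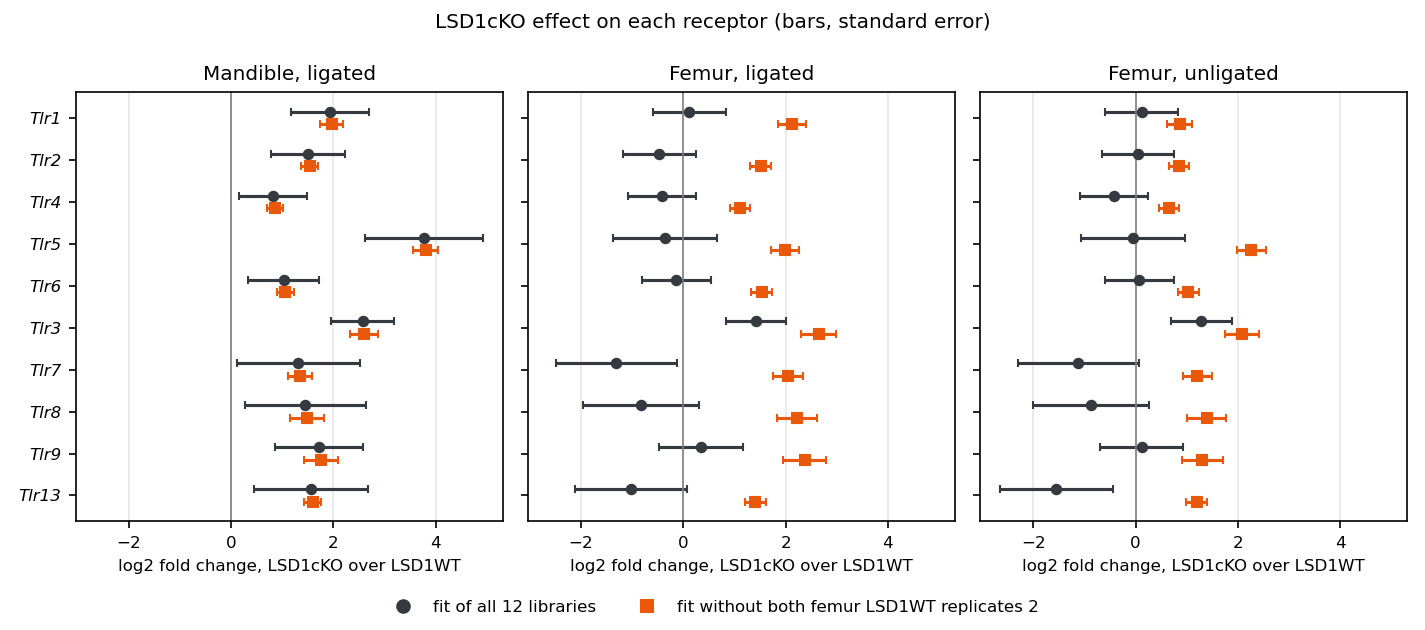
Log2 fold change of LSD1cKO over LSD1WT (x axis) for each receptor in each culture, with bars of 1 standard error, from the fit of all 12 libraries (grey circles) and from the fit without both femur LSD1WT replicate 2 libraries (orange squares). In the mandible the 2 fits give nearly the same values with shorter bars in the second, whereas in the femur the medians move from -0.39 to 2.02 (ligated) and from about 0 to 1.20 (unligated).

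In the mandible of ligated mice both LSD1cKO libraries had more of all 10 receptors than either LSD1WT library, an order that 34.1% of all genes showed in that direction. Among the surface receptors, Tlr5 (ENSMUSG00000079164) had 0.571 and 0.550 CPM in the LSD1WT pair and 7.21 and 8.19 CPM in the LSD1cKO pair. Tlr1 (ENSMUSG00000044827) had 2.53 and 2.46 CPM in the LSD1WT pair and 7.59 and 11.5 CPM in the LSD1cKO pair. Tlr2 (ENSMUSG00000027995), the shared partner of Tlr1 and Tlr6, had 18.0 and 20.8 CPM in the LSD1WT pair and 47.4 and 62.2 CPM in the LSD1cKO pair. These genes stood at more than 2 times the LSD1WT level in each mandible LSD1cKO library, and Tlr5 had the widest gap of the family. Tlr6 (ENSMUSG00000051498) had 3.67 and 3.74 CPM in the LSD1WT pair and 7.01 and 8.10 CPM in the LSD1cKO pair. Tlr4 (ENSMUSG00000039005), the lipopolysaccharide receptor, had 36.4 and 38.5 CPM in the LSD1WT pair and 57.8 and 75.0 CPM in the LSD1cKO pair. It had the smallest log2 fold change, 0.83 (standard error 0.67), against 3.77 (1.16) for Tlr5, 1.93 (0.76) for Tlr1, 1.5 (0.73) for Tlr2 and 1.03 (0.69) for Tlr6.

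The endosomal receptors had the same order in the mandible. Tlr7 (ENSMUSG00000044583), which binds single-stranded RNA, had 6.20 and 6.53 CPM in the LSD1WT pair and 12.2 and 19.5 CPM in the LSD1cKO pair. Tlr8 (ENSMUSG00000040522), its neighbour on the X chromosome, had 2.82 and 3.38 CPM in the LSD1WT pair and 6.32 and 10.6 CPM in the LSD1cKO pair. Tlr9 (ENSMUSG00000045322), which binds unmethylated CpG DNA, had 2.33 and 2.05 CPM in the LSD1WT pair and 5.56 and 8.87 CPM in the LSD1cKO pair. In each of these genes LSD1cKO replicate 2 was above replicate 1, as it was for all 10 receptors in the mandible. Tlr13 (ENSMUSG00000033777), which binds bacterial ribosomal RNA in mice, had 21.7 and 22.9 CPM in the LSD1WT pair and 56.8 and 74.9 CPM in the LSD1cKO pair. The log2 fold changes were 2.57 (standard error 0.62) for Tlr3, 1.72 (0.86) for Tlr9, 1.56 (1.11) for Tlr13, 1.45 (1.18) for Tlr8 and 1.31 (1.20) for Tlr7, and the median over the 10 receptors was 1.53 against 0.00 over all genes.

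In the test of the mandible alone within the fit of all 12 libraries, none of the 10 receptors passed an adjusted p of 0.05 (0 of 10, with 0% of all genes passing, quasi-likelihood test of edgeR, Benjamini-Hochberg adjusted). At an unadjusted p under 0.05 there were 3, Tlr1, Tlr3 and Tlr5, where 3.81% of all genes were higher in LSD1cKO at that level, and the adjusted p was 0.474 for Tlr3 and 0.699 for Tlr5 (edgeR). DESeq2 called 2, Tlr3 and Tlr5, and 0.947% of all genes, while limma voom called 0. When the 4 mandible libraries were fitted alone, all 10 receptors passed, together with 37.7% of all genes. In the fit without the 2 femur LSD1WT libraries all 10 passed as well, together with 5.85% of all genes. Over genes, the median squared difference within the mandible LSD1WT pair was 1.53 times the value that sampling alone gives. That was the least of the 6 pairs, with 5.09 to 87.6 in the others. The calls of the fit of the 4 mandible libraries rest in part on this small spread. Whether the 2 LSD1WT libraries, 1 of them with conflicting labels, come from separate mice was not tested. Tlr5 stood on the study's own heat map of inflammation genes from these mandible libraries, so its direction there is not independent evidence. Beside these values, the macrophage marker sum was 3311 and 3360 CPM in LSD1WT and 2802 and 3499 CPM in LSD1cKO, and the osteoclast marker sum was 26214 and 26090 CPM in LSD1WT and 14649.7 and 14779 CPM in LSD1cKO. Of the 8 macrophage markers, Adgre1 and Fcgr1 were higher in both LSD1cKO libraries (117 and 187.5 CPM against 47.6 and 49.8 CPM for Adgre1), Csf1r and Cd68 were lower in both, and the other 4 overlapped. All 10 osteoclast markers were lower in both. The 5 stromal and endothelial markers summed to 39.9 and 40.9 CPM in LSD1WT and to 8.45 and 3.55 CPM in LSD1cKO. The part of these markers in the receptor levels was not tested.

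In the femur the LSD1WT pairs spanned the LSD1cKO values for 9 receptors. The surface receptors Tlr1, Tlr2, Tlr4, Tlr5 and Tlr6 in the ligated femur were at 15.7, 34.0, 61.2, 1.78 and 7.73 CPM in LSD1WT replicate 1 and at 103, 219, 270.3, 15.3 and 38.7 CPM in LSD1WT replicate 2. Their LSD1cKO values were 63.4 and 65.3 CPM for Tlr1, 88.5 and 94.5 CPM for Tlr2, 122 and 125 CPM for Tlr4, 6.53 and 6.75 CPM for Tlr5 and 20.2 and 22.0 CPM for Tlr6. Each LSD1cKO pair lay close together and between the 2 LSD1WT values. The endosomal receptors other than Tlr3 did the same. Tlr7 had 27.5 and 506 CPM in the LSD1WT pair and 121 and 94.5 CPM in the LSD1cKO pair. Tlr8 had 22.8 and 332 CPM in the LSD1WT pair and 116 and 85.5 CPM in the LSD1cKO pair. Tlr9 had 7.28 and 48.7 CPM in the LSD1WT pair and 40.1 and 30.9 CPM in the LSD1cKO pair, and Tlr13 had 46.1 and 424 CPM in the LSD1WT pair and 124 and 107 CPM in the LSD1cKO pair. The LSD1WT gap was widest for Tlr7 and narrowest for Tlr3.

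The unligated femur showed this layout too, in mice that the labels name as separate. Tlr1 was at 25.6 and 59.6 CPM, Tlr2 at 42.9 and 106 CPM and Tlr4 at 67.7 and 215 CPM in LSD1WT. In LSD1cKO they were at 41.6 and 50.9 CPM, 72.9 and 80.9 CPM, and 98.7 and 113 CPM. Each LSD1cKO value again fell between the 2 LSD1WT values. Tlr5 was at 1.34 and 11.9 CPM and Tlr6 at 8.25 and 23.7 CPM in LSD1WT, against 6.95 and 5.83 CPM and 17.8 and 15.8 CPM in LSD1cKO. Tlr7, Tlr8, Tlr9 and Tlr13 were at 35.7, 27.6, 9.70 and 51.0 CPM in LSD1WT replicate 1 and at 319, 237, 34.2 and 631 CPM in replicate 2. For these 4 genes the LSD1cKO values were 85.0 and 78.8 CPM, 87.4 and 56.6 CPM, 29.9 and 17.8 CPM, and 112 and 120.4 CPM. Tlr13 in LSD1WT replicate 2 was the highest receptor level of the series. In LSD1WT the difference between replicates 1 and 2 correlated at 0.78 across genes between the ligated and the unligated femur. The layouts of the 2 femur cultures are therefore not taken as independent.

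In the tests of the femur within the fit of all 12 libraries, none of the 10 receptors passed in ligated mice, where 0.00648% of all genes passed, or in unligated mice, where 0% passed (quasi-likelihood test of edgeR, Benjamini-Hochberg adjusted). At an unadjusted p under 0.05 there was 1 receptor in the ligated femur, Tlr3 at 1.42 on the log2 scale (standard error 0.59), and 0 in the unligated femur, where Tlr3 had 1.29 (0.59). DESeq2 and limma voom called 0 in both. Tlr3 was also the only receptor of the 10 with both LSD1cKO libraries above both LSD1WT libraries, which 14.8% of all genes showed in the ligated and 9.82% in the unligated femur. The median over the receptors, on the log2 scale, was -0.39 with ligature and 0.00 without, against -0.12 and -0.05 over all genes, and the first of these lay between -1.08 and 2.02 over the alternatives, so no direction is given. Without the 2 femur LSD1WT replicate 2 libraries, which leaves 1 LSD1WT library in each femur culture whose spread is assumed to match that of the other groups, the femur gave 10 receptors called higher with ligature and 4 without (Tlr3, Tlr5, Tlr6 and Tlr13). All genes were called at 9.35% and 2.47% in these fits, and the receptor medians were 2.02 and 1.20. Leaving out ligated femur LSD1WT replicate 2 alone moved the ligated median to 1.93, and leaving out the unligated replicate 2 alone moved the unligated median to 1.20.

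Each receptor was also set against the other members within its own library, a measure chosen after the values had been seen and given here as a description. It is the log2 CPM of the receptor minus the mean log2 CPM of the other 9, and it does not depend on how libraries are scaled to each other. In LSD1WT, Tlr3 lay at -2.64 to -1.28 with a median of -1.42, and in LSD1cKO at -0.67 to -0.33 with a median of -0.56. All 6 LSD1cKO libraries were above all 6 LSD1WT libraries, in the mandible as in the femur. Measured against the receptor mean, 0.149% of all genes (23 of 15425) had no overlap of the genotypes with LSD1cKO higher. That share is no like background, since subtracting the receptor mean adds the spread of the family to genes that do not follow it. On plain CPM 1.98% of all genes (306 of 15425) separated the genotypes in that direction, and Tlr3 was not among them. The 2 lowest Tlr3 values, -2.64 and -2.42, were those of the femur LSD1WT replicate 2 libraries, and without them LSD1WT lay at -1.42 to -1.28. The other 9 receptors overlapped between genotypes on this measure. For Tlr5 the 2 mandible LSD1cKO libraries, of which the highest stood at -1.03, were apart from the 10 other libraries, which lay at -4.06 to -2.97. When taken as a share of the family sum per kilobase, Tlr5 too had no overlap of the genotypes. Its share was 0.404% to 0.657% in LSD1WT and 0.731% to 2.83% in LSD1cKO, so the separation of Tlr3 alone depends on the measure.

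**Figure D4:**
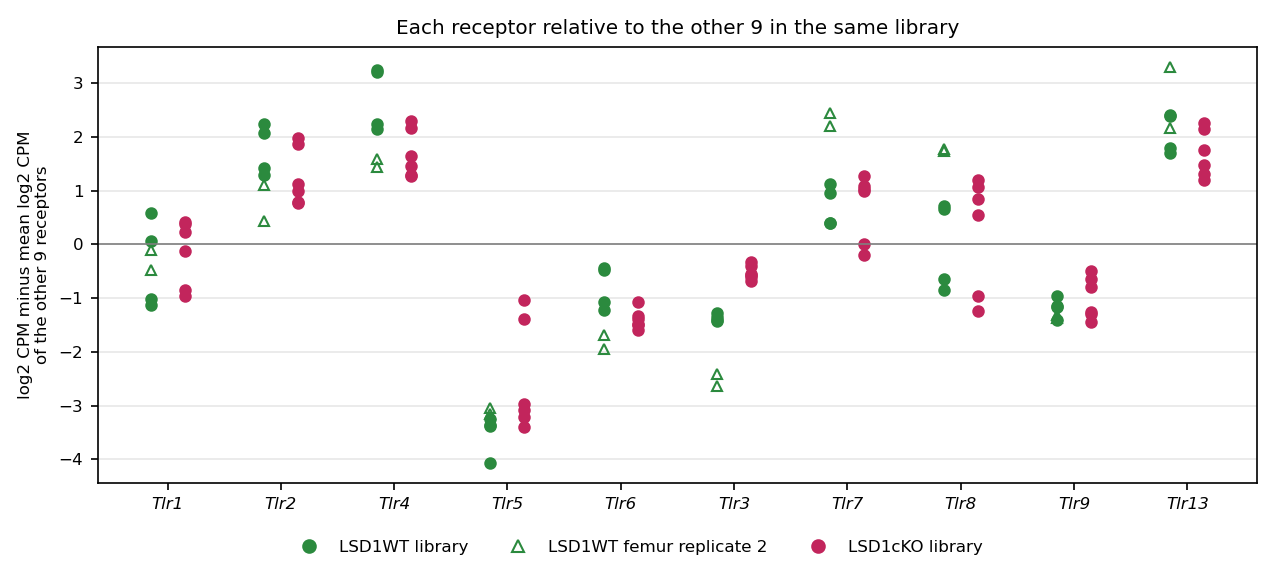
Log2 CPM of each receptor minus the mean log2 CPM of the other 9 receptors in the same library (y axis), with 1 point per library, LSD1WT in green (femur replicate 2 as open triangles) and LSD1cKO in magenta. For Tlr3 the 6 LSD1cKO points (-0.67 to -0.33) lie above the 6 LSD1WT points (-2.64 to -1.28). The genotypes overlap for the other 9 receptors on this measure, though not for Tlr5 as a share of the family sum.

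The second question was how marrow of the mandible and femur differ in ligated mice. In LSD1WT all 10 receptors were lower in both mandible libraries than in both femur libraries, as were 31.5% of all genes. The log2 differences, mandible minus femur, were largest in size for the single-stranded RNA receptors, at -5.84 (standard error 1.40) for Tlr8 and -5.39 (1.41) for Tlr7. They were -4.57 (0.84) for Tlr1, -3.91 (1.17) for Tlr5, -3.67 (0.92) for Tlr9 and -3.39 (1.19) for Tlr13. The smallest were -2.71 (0.76) for Tlr2, -2.68 (0.63) for Tlr3, -2.64 (0.72) for Tlr6 and -2.14 (0.69) for Tlr4. Without the 2 femur replicate 2 libraries the differences shrank and their order changed, to -2.85 for Tlr8, -2.62 for Tlr1, -2.08 for Tlr7 and -0.67 for Tlr4. The median with all libraries was -3.53 against -0.03 over all genes. None of the 10 passed after adjustment (0 of 10, with 0% of all genes passing, quasi-likelihood test of edgeR, Benjamini-Hochberg adjusted), whereas all 10 had an unadjusted p under 0.05, a level at which 14.7% of all genes were lower in the mandible, and adjusted p of 0.167 to 0.203. DESeq2 called all 10 and 7.71% of all genes, and limma voom called 0. Leaving out femur LSD1WT replicate 1 left the outlying replicate 2 as the only ligated femur LSD1WT library. Its spread is then assumed to match that of the other groups, so calls made there by edgeR are not weighed. Without the 2 femur replicate 2 libraries it called 3 receptors and 0.900% of all genes, all 10 stayed lower, and the median was -1.56.

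In LSD1cKO 9 of the 10 receptors were lower in both mandible libraries than in both femur libraries, where 35.0% of all genes were. The exception was Tlr5, which at 7.21 and 8.19 CPM in the mandible lay above its 6.53 and 6.75 CPM in the femur, with a log2 difference of 0.21 (standard error 1.01). The differences of the other receptors ran from -3.57 (1.25) for Tlr8, -2.76 (1.24) for Tlr7, -2.76 (0.77) for Tlr1 and -2.30 (0.86) for Tlr9 to -1.53 (0.59) for Tlr3 and -1.48 (0.69) for Tlr6. Those of Tlr4, Tlr13 and Tlr2 were -0.90 (0.67), -0.81 (1.09) and -0.74 (0.71). None passed after adjustment within the fit of all 12 libraries (0 of 10, with 0% of all genes passing, quasi-likelihood test of edgeR, Benjamini-Hochberg adjusted), and 4, Tlr1, Tlr3, Tlr8 and Tlr9, had an unadjusted p under 0.05, where 6.81% of all genes were lower in the mandible. DESeq2 called 2, Tlr1 and Tlr8, and 5.25% of all genes, and limma voom called 0. Because both LSD1cKO mice gave both libraries, the mouse can be a block, and with this replicate block in the 4 libraries 9 receptors were called lower, with 38.2% of all genes called. Without the 2 femur LSD1WT libraries in the shared fit the same 9 were called, with 21.7% of all genes.

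Within mice the direction was the same. The ratio of femur to mandible was 1.68 to 8.11 over the 10 receptors in LSD1WT mouse 1, with a median of 3.08. It was 0.905 to 18.3, with a median of 3.39, in LSD1cKO mouse 1 and 0.824 to 8.07, with a median of 2.49, in LSD1cKO mouse 2. Tlr8 had the highest ratio in LSD1WT mouse 1 and in both LSD1cKO mice, at 8.11, 18.3 and 8.07. Tlr2 and Tlr4 stayed between 1.52 and 2.11. Tlr5 was the only receptor whose ratio fell below 1, in both LSD1cKO mice, against 3.11 in LSD1WT mouse 1. As shares of the family per kilobase, Tlr7 and Tlr8 made up 6.51% to 6.67% and 3.44% to 3.83% in the mandible of LSD1WT, against 11.9% to 24.8% and 11.3% to 18.6% in its ligated femur. Macrophage markers moved along with this difference, since their sum was 2802 to 3499 CPM in the 4 mandible libraries and 6541 to 45271 CPM in the 4 ligated femur libraries, with none of the 8 at 0. All 8 of them had negative site differences in both genotypes. Their part in the site difference was not tested.

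**Figure D5:**
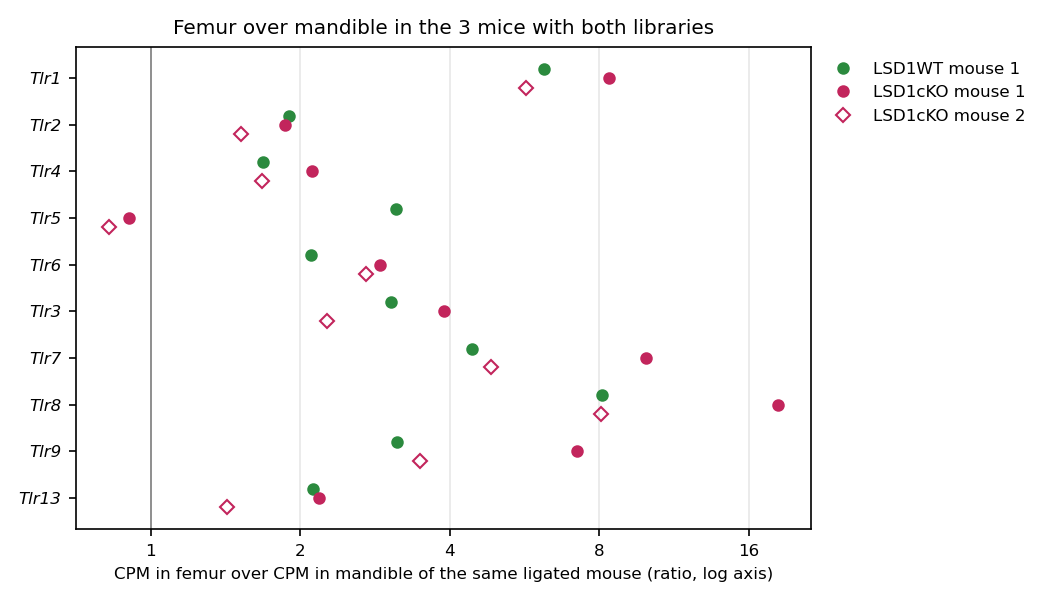
Ratio of CPM in the femur to CPM in the mandible of the same ligated mouse (x axis, log scale) for each receptor, in LSD1WT mouse 1 (green), LSD1cKO mouse 1 (filled magenta) and LSD1cKO mouse 2 (open magenta). All points lie above 1 except those of Tlr5 in the 2 LSD1cKO mice, at 0.905 and 0.824, and Tlr8 has the highest ratio in LSD1cKO mouse 1, at 18.3.

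The difference of the genotype effect between the sites was tested as an interaction. It was above 0 for all 10 receptors, with a median of 1.89 against 0.09 over all genes, and 0 passed after adjustment, as did 0% of all genes (quasi-likelihood test of edgeR, Benjamini-Hochberg adjusted). Tlr5 had the largest value, 4.13 (standard error 1.52). DESeq2 and limma voom called 0. The median turned to -0.14 without ligated femur LSD1WT replicate 2 and to -0.20 without both replicate 2 libraries.

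A ligature on the molars had no called effect on the receptors in femur marrow. In LSD1WT and in LSD1cKO 0 of 10 receptors passed, 0% of all genes passed, and 0 receptors had an unadjusted p under 0.05 (edgeR quasi-likelihood test, Benjamini-Hochberg adjusted; DESeq2 and limma voom also called 0). The median log2 difference, ligated minus unligated, was 0.39 in LSD1WT. It turned to -1.52 without ligated replicate 2, a fit that kept the outlying unligated replicate 2 and is thus unbalanced. The receptors summed to 230.4 CPM ligated and 277 CPM unligated in LSD1WT replicate 1, and to 1977 and 1655 CPM in replicate 2. The LSD1cKO median was 0.30. In these cells 7 receptors, Tlr1, Tlr2, Tlr3, Tlr4, Tlr6, Tlr7 and Tlr9, were higher in both ligated than in both unligated libraries. The same order held for 14.0% of all genes. In these LSD1cKO femur libraries the macrophage marker sum (9983 and 10418 CPM ligated, 7310.0 and 9342 CPM unligated) and the neutrophil marker sum (306 and 279 CPM ligated, 141 and 214 CPM unligated) were also higher with ligature, and their part was not tested. The interaction of genotype and ligature gave 0 called receptors and 0% of all genes, with a median of 0.00.

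Over the 12 libraries the closest profiles were those of the surface receptors Tlr2, Tlr4 and Tlr6 and of the neighbours Tlr7 and Tlr8. With each gene centred on its own mean log2 CPM, the mean absolute difference between receptors was smallest for Tlr2 and Tlr6 (0.21), Tlr4 and Tlr6 (0.25) and Tlr2 and Tlr4 (0.25), followed by Tlr7 and Tlr8 (0.32) and Tlr1 and Tlr9 (0.39). Among all genes tested, the 2 genes nearest to each receptor were Aif1 (0.24) and Nod1 (0.25) for Tlr1, Cysltr1 (0.16) and Neurl3 (0.16) for Tlr2, and Tpd52 (0.08) and Rnf130 (0.09) for Tlr4. For Tlr5 they were Tnfrsf26 (0.29) and Gm11110 (0.33), and for Tlr6 Stom (0.10) and Smpdl3a (0.14). Tlr3 was nearest to Slc2a6 (0.27) and to Ifih1 (0.28), which encodes a cytosolic sensor of double-stranded RNA. Tlr7 was nearest to P2ry12 (0.18) and Fgd4 (0.22), and Tlr8 to Cmklr1 (0.30) and Tlr7 itself (0.32). Tlr9 was nearest to 9930111J21Rik1 (0.13) and Krt80 (0.19), and Tlr13 to Fli1 (0.17) and Ctsc (0.18). These likenesses are descriptions over libraries that share the 2 outlying femur LSD1WT cultures.

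Proteins that carry or assist the receptors were tested next. Of 10 chaperones and co-receptors 0 passed over the 3 cultures (quasi-likelihood test of edgeR, Benjamini-Hochberg adjusted), 0 had an unadjusted p under 0.05, their median log2 fold change was -0.17, and DESeq2 and limma voom called 0. Without the 2 outlying femur LSD1WT libraries Cd14, Cnpy3, Ly86 and Unc93b1 were called higher, 4 of the 10, in a fit that called 24.2% of all genes. Unc93b1, which escorts the nucleic acid sensors to endosomes, was at 80.1 and 76.4 CPM in mandible LSD1WT and at 133 and 172 CPM in mandible LSD1cKO. In the ligated femur it had 221 and 967 CPM in the LSD1WT pair and 508 and 429 CPM in the LSD1cKO pair, the LSD1cKO pair again lying between the LSD1WT values. Cd14, which hands lipopolysaccharide to Tlr4, was at 15.8 to 251 CPM over the LSD1WT libraries and at 28.3 to 73.3 CPM over the LSD1cKO libraries. The scavenger co-receptor Cd36 ranged from 23.9 to 1604 CPM in LSD1WT and from 36.6 to 202 CPM in LSD1cKO, and Ly86, the partner of Cd180, from 2.69 to 282 CPM and from 4.60 to 62.6 CPM. Their highest values lay in the 2 outlying femur LSD1WT libraries. Cd180, at 148 to 313 CPM, Hsp90b1, at 540.3 to 972 CPM, Slc15a4, at 36.1 to 75.7 CPM, and Ly96, the Tlr4 partner, at 7.63 to 23.9 CPM, varied less over the 12 libraries. Cnpy3 lay at 39.1 to 137 CPM, and Lbp at 0.323 to 1.41 CPM.

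The 6 adaptors also gave 0 calls, with edgeR as with DESeq2 and limma voom, and 2, Myd88 and Ticam2, were called higher without the 2 outlying libraries, where 24.2% of all genes were called. Myd88, used by every receptor here but Tlr3, ranged over 46.8 to 90.4 CPM in LSD1WT libraries and 49.0 to 83.4 CPM in LSD1cKO libraries. Ticam1, the adaptor of Tlr3, ranged over 34.9 to 39.4 CPM in LSD1WT libraries and 23.6 to 46.3 CPM in LSD1cKO libraries. Neither adaptor followed the several-fold spread of the receptors. Ticam2, which links Tlr4 to Ticam1, did vary, from 2.00 to 52.9 CPM in LSD1WT and from 6.59 to 30.3 CPM in LSD1cKO. Tirap lay at 27.4 to 42.2 CPM and Sarm1 at 0.667 to 3.13 CPM over the 12 libraries. Pik3ap1, at 254 to 534 CPM, had the only unadjusted p under 0.05 among the adaptors.

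Downstream of the adaptors, 0 of 18 kinases and ubiquitin ligases passed, and 1 of them had an unadjusted p under 0.05, while DESeq2 called 1 lower, Tbk1, and limma voom 0. Without the 2 outlying femur LSD1WT libraries 3 of the 18 were called higher and 2 lower, near the 24.2% of all genes. The smallest p belonged to Tbk1, at 98.8 to 151 CPM in LSD1WT and 79.9 to 107 CPM in LSD1cKO, and to Ripk1, at 92.4 to 177 CPM and 80.6 to 125 CPM. Of 10 transcription factors 1 passed with all 12 libraries, where 3.53% of all genes passed. Without the outlying libraries 3 were called higher and 1 lower, where 24.2% of all genes were called. The gene that passed with all 12 libraries was Irf7, the interferon regulatory factor downstream of Tlr7 and Tlr9. It rose from 1.80 to 72.1 CPM over the LSD1WT libraries to 4.53 to 390.4 CPM over the LSD1cKO libraries, a log2 fold change of 2.71 (standard error 0.42). Of 12 negative regulators 2 rose, where 3.53% of all genes passed. They were Sigirr, an inhibitory member of the same receptor superfamily, and Socs1, an inhibitor of cytokine signalling. Sigirr ranged over 2.31 to 5.18 CPM in LSD1WT libraries and 7.42 to 11.7 CPM in LSD1cKO libraries, a log2 fold change of 1.36 with a standard error of 0.14, and it passed under all 22 alternatives. Socs1 ranged over 1.49 to 2.52 CPM in LSD1WT libraries and 3.43 to 6.09 CPM in LSD1cKO libraries, with a log2 fold change of 1.17 (0.23). All 6 LSD1cKO libraries were above all 6 LSD1WT libraries for both of these genes, as they were for 1.98% of all genes. Without the outlying libraries 5 of the 12 negative regulators were called higher, where 24.2% of all genes were called.

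Among 18 cytokine and effector genes that receptor signalling can induce, 12 were tested and 4 rose in LSD1cKO over the 3 cultures, where 3.53% of all genes passed (quasi-likelihood test of edgeR, Benjamini-Hochberg adjusted). Cxcl10, a chemokine also induced by interferons, ranged over 0.587 to 17.2 CPM in LSD1WT libraries and 4.74 to 107 CPM in LSD1cKO libraries, a log2 fold change of 3.00 (standard error 0.53). Ccl5 ranged over 0.166 to 2.36 CPM in LSD1WT libraries and 1.96 to 10.3 CPM in LSD1cKO libraries (log2 fold change 2.37, standard error 0.44). Ptgs2, the inducible cyclooxygenase, ranged over 0.248 to 1.26 CPM in LSD1WT libraries and 1.21 to 4.05 CPM in LSD1cKO libraries (1.61, 0.21). Cxcl9 had 0 to 11 counts per library in LSD1WT and 1 to 98 in LSD1cKO, with a log2 fold change of 3.04 (0.65). The other 8 tested genes, among them Tnf, Il1b, Ccl3 and Ccl4, did not pass, and the median of the 12 tested genes was -0.15. Il6 and Ifnb1 had at most 6 counts in any library and were not tested. Adjusted p of these 7 called genes ran from 0.000997 (Sigirr) to 0.0292 (Cxcl9) in edgeR's fit, and DESeq2 and limma voom called all 7. Without the 2 outlying femur LSD1WT libraries 7 of 13 tested genes of the cytokine list were called higher, Ccl3, Ccl4 and Nos2 among them, where 24.2% of all genes were called. Ptgs2 kept its call under all 22 alternatives, Irf7, Socs1, Ccl5 and Cxcl10 each lost theirs under 1, and Cxcl9 lost it under 9.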

How the data were processed

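The study deposited 1 table of read counts for each gene in 12 libraries, made by the authors from polyA RNA reads without normalization. The submitters' processing notes name FastQC, HISAT2 2.1.0, featureCounts, edgeR and GRCm39. Strand and multi-mapping settings are not given in the sources used here, so reads of the close paralogs Tlr1 and Tlr6 could be split or dropped.

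Libraries were grouped by their labels. In R 4.3.3, genes kept by filterByExpr (15425 of 57010) were scaled with TMM, and CPM (counts per 1e6 of scaled library size) took a prior count of 2 on the log2 scale. All 12 libraries were fitted with edgeR 4.0.16 (glmQLFit, glmQLFTest), with 1 coefficient per condition, or with culture and genotype as terms for the effect over the 3 cultures. Tests were two-sided, with Benjamini-Hochberg adjustment over all genes tested and a threshold of 0.05. Standard errors were derived from the test, as the absolute log2 fold change divided by the square root of the quasi-likelihood F statistic. The p values measure the spread between libraries, 3 mice having given 2 libraries each. DESeq2 1.42.0 and limma 3.58.1 (voom, mouse as random block) were among the 22 alternatives, with other scalings and filters, libraries left out or summed, the relabelled library, compared conditions alone and replicate blocks. The level relative to the family was added after the data were seen. Models were tested on simulated counts that held no culture differences, outlying libraries or shared mice. That test does not show how the calls behave with the outlying femur LSD1WT libraries. The 2 LSD1cKO mice with both sites come from the labels, and the differences between them correlated at 0.026 across genes between the sites.

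Members, lists and tests were chosen with earlier results of these data known. Named genes are all members, chaperones and adaptors, from each other list those that passed over the 3 cultures (at most 4) or else the 2 of smallest p, the 2 genes nearest to each member, and Kdm1a. Markers, and cytokine genes named without a call, were chosen after their values were seen. Exon lengths and promoter windows are from GRCm38 annotations.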

Additional observations from a re-analysis of the deposited data

How the results depend on the processing

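The number of receptors called changed with the 2 femur LSD1WT libraries numbered replicate 2, which held the highest receptor sums. Without both, the calls were 10 over the 3 cultures and 10 in the mandible for genotype, and 9 in LSD1cKO for site. The genotype comparisons in the femur and the site comparison in LSD1WT then rested on 1 LSD1WT library per femur culture. Their calls are not weighed. With the compared conditions alone they were 10 for genotype in the mandible and 9 for site in LSD1cKO. DESeq2 called 2 for genotype in the mandible, 10 for site in LSD1WT and 2 in LSD1cKO, and dropping the filter called 1, 10 and 2. The replicate block in the 4 LSD1cKO libraries of the same mice called 9 for site, and a replicate block in all 12 libraries changed no count of receptors called. Taking mandible LSD1WT replicate 3 as femur, or summing the 2 mandible LSD1WT libraries, called 0 over the 3 cultures. With each library left out in turn, the calls ran from 0 to 1 over the 3 cultures, from 0 to 10 for site in LSD1WT and from 0 to 1 for site in LSD1cKO, and were 0 in the other 7 comparisons. The 10 for site in LSD1WT came from the fit whose only ligated femur LSD1WT library was the outlying replicate 2. The cause of these shifts was not tested. Fold changes whose sign turned under an alternative were left unnamed, which holds for 4 receptors over the 3 cultures and for 9 in each femur culture. Each condition had 2 libraries, the biological coefficient of variation of the shared fit was 0.42, and every receptor lay above 3 counts in each library.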
